A study of Mus musculus with 25 samples.

Results

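Gdnf, Ret, Gfra1 and Maz, 4 of the 26182 mouse genes with a curated RefSeq transcript on mm10, were followed through the genome-wide peak lists of the chromatin reader Spin1 and of H3K4me3, the histone mark that Spin1 reads. The genes were given by name, with no threshold on their peaks, although earlier results of these data were known when they were picked. Each was placed by its RefSeq transcripts, and every listed peak was taken that fell within 1 kb of a transcription start site (TSS±1 kb, called the promoter), in the gene body or within 100 kb on either side. The 4 genes have 14 curated transcripts, which begin at 8 start sites.

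The study deleted Spin1 in the myogenic lineage of the mouse and examined fetal and young muscle by RNA-seq, which is not analysed here. To ask where Spin1 sits on chromatin, it performed ChIP-seq in primary myoblasts, the cultured precursors of muscle fibres. These cells were prepared by preplating, which lets faster-attaching fibroblasts settle out first, from the limb muscle of C57BL/6 mice aged 10 days (C57BL/6 N in the study's methods), and were grown to about 70% confluency. A custom antibody against Spin1 and a commercial one against the methyl mark were used, and each gave 1 library that was compared with an input library without antibody. The labels name no genotype or treatment for the 3 libraries, and how many animals gave the cells is not stated. Without a second library of either kind no spread between replicates can be given, so all values below describe these libraries and carry no test. Intervals are 95% Wilson intervals over genes or sites, cover counting error only and take genes as independent, which neighbouring genes are not.

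GDNF is a secreted ligand that binds the membrane-anchored co-receptor GFRα1, and the pair then engages and activates the receptor tyrosine kinase RET. Muscle is a known source of GDNF for motor neurons, whose survival and terminal branching the ligand supports. MAZ is a zinc finger transcription factor that binds GC-rich DNA around the letters GGGAGGG. Earlier work on liposarcoma placed SPIN1 and MAZ upstream of GDNF-RET signalling. Spin1 recognises trimethylated lysine 4 of histone H3, a mark of active and poised promoters.

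A peak is a stretch in which an antibody library held more reads than the input. The lists have no header, and their score was read, from the usual layout of the peak caller's output, as 10 times the negative log10 of its p-value. It rises with depth and width as well as with occupancy, and it piles up at a ceiling, since 30.9% of Spin1 peaks and 45.2% of H3K4me3 peaks carry 3100 or more. No read count accompanies the scores, so the depth is unknown, and a site without a peak is one at which none was listed, not one shown to be free of Spin1. Peak width depends on depth too, and the 2 lists cannot be set against each other in units of signal.

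The myoblast label was checked against marker genes. Both peaks were listed at 7 of 7 myoblast markers (Myod1, Myf5, Pax7, Des, Cdh15, Itga7 and Msc). Of 26 markers of fibroblasts, endothelial, immune, glial and nerve cells, 6 had both peaks and 17 had H3K4me3. Of all protein-coding genes, 56.7% had both peaks and 68.0% had H3K4me3, so H3K4me3 alone did not set the markers of other cells apart from genes at large. No endothelial or immune marker had Spin1, and the highest H3K4me3 score among the immune markers was 51.78, at Cd68. Among the glial markers, Ngfr had both peaks, with a Spin1 score of 149.6, and Sox10 had H3K4me3 with a score of 1995 and no Spin1 peak. Gdnf, Ret and Gfra1 are also used by nerve and glial cells, and the part of other cells in the peaks at these genes was not tested. In a bulk library, a mark in some of the cells and a weaker mark in all of them cannot be told apart. At the Spin1 gene itself, both peaks were listed, with widths of 4040 bp for Spin1 and 4447 bp for H3K4me3.

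All 4 genes had both a Spin1 and an H3K4me3 peak at the promoter. The same was true of very many genes. Spin1 was listed at the promoter of 13267 of 26182 genes, which is 50.7% (50.1 to 51.3%), and H3K4me3 at 16207 genes, which is 61.9% (61.3 to 62.5%). Both were listed at 13246 genes or 50.6%, and at 11903 of the 21000 protein-coding genes or 56.7% (56.0 to 57.3%). A count of 4 of 4 therefore says little by itself, and the genes are described below by how their peaks lie. Within the 4 loci, 13 Spin1 peaks and 25 H3K4me3 peaks were listed. All 13 Spin1 peaks overlapped H3K4me3, as did 91.3% of Spin1 peaks genome-wide (90.9 to 91.7%). Of the 25 H3K4me3 peaks, 11 overlapped Spin1.

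**Figure D1:**
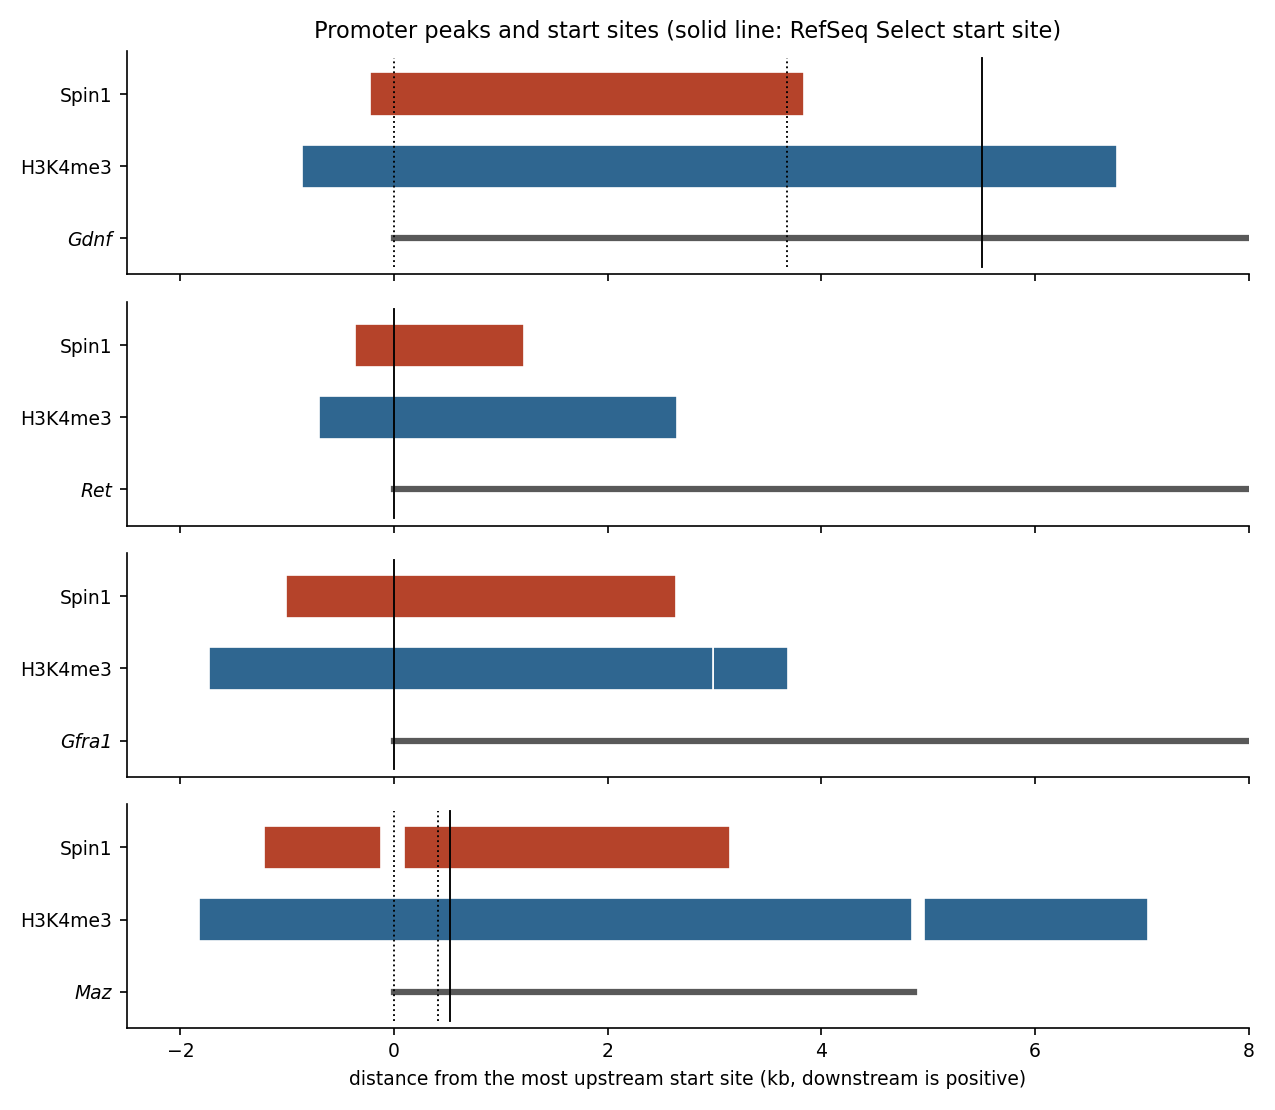
Spin1 peaks (upper bars) and H3K4me3 peaks (middle bars) at the promoters of Gdnf, Ret, Gfra1 and Maz, drawn against the distance in kb from the most upstream start site in the direction of transcription. Vertical lines are start sites (solid for RefSeq Select, dotted for the others) and the lower line is the gene. The Spin1 peak of Gdnf covers the first 2 start sites and ends before the solid line, and the most upstream start of Maz lies in the gap between 2 Spin1 peaks.

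Gdnf encodes the ligand. It lies on the plus strand at chr15:7810048-7837580, and its 4 transcripts begin at 3 places, at positions 7810048 (2 transcripts), 7813727 and 7815550. The start sites are spaced by 3679 and 1823 bp. A single H3K4me3 peak, chr15:7809184-7816814, ran over all 3 with a width of 7631 bp and a score of 3100. Only 3.38% of the protein-coding genes with promoter H3K4me3 had a peak at least as wide, and the median of these 14281 genes was 3250 bp (quartiles 2397 and 4374 bp). The Spin1 peak, chr15:7809827-7813886, was 4060 bp wide and had a score of 1493. It too was wide, since 7.94% of the 11911 protein-coding genes with promoter Spin1 reached this width and the median was 2295 bp (quartiles 1707 and 2994 bp). Its score was not high, as 71.7% of these genes scored as high or higher.

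Spin1 covered the upstream starts of Gdnf and left out the most downstream one. The Spin1 peak took up 61.1% of the 2001 bp window around the first start site and 58.0% of the window around the second. The third window held none of it. This start site, which RefSeq Select uses to represent the gene, lay 1664 bp past the end of the Spin1 peak and inside the H3K4me3 peak, whose far edge was 2928 bp beyond that of Spin1. Among 2097 genes with 2 or more start sites, H3K4me3 at every one and Spin1 at 1 or more, 290 or 13.8% (12.4 to 15.4%) likewise lacked Spin1 at a start site. The absence fell on the RefSeq Select site in 185 of 2691 protein-coding genes with several start sites and both peaks, or 6.87% (5.98 to 7.89%). Under the annotation, the Spin1 peak of Gdnf spanned 221 bp before the gene, 1166 bp of noncoding exon, 61 bp of coding exon and 2612 bp of intron.

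The sequences before the 2 Spin1-covered starts of Gdnf are shown because they were the part of this locus that Spin1 marked. Both are GRCm38 reference sequence, and neither holds GGGAGGG or its complement CCCTCCC.
Gdnf chr15:7809798-7810047 (+): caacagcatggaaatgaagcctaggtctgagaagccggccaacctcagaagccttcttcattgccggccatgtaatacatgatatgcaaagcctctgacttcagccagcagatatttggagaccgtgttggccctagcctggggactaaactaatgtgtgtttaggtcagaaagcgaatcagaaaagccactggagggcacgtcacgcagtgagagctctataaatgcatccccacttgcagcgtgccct
Gdnf chr15:7813477-7813726 (+): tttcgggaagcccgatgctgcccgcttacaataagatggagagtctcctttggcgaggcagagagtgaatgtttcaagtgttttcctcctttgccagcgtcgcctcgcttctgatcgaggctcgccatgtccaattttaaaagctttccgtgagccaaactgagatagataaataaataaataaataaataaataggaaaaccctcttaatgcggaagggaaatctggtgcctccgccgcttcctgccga
The first stretch, of 250 bases, had 7 CpGs and 50.8% GC, and 221 of its bases lay under the Spin1 peak. The second, inside an intron of the longer transcripts, lay wholly under Spin1 with 14 CpGs and 46.8% GC.

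The MAZ motif was found in Gdnf downstream of the first start, not before it. GGGAGGG was searched on both strands, and 7 matches lay under the Spin1 peak, 6 of them in the noncoding first exon between 118 and 467 bp after the start and 1 in an intron 2171 bp after it. Of the 7, 6 read on the strand opposite to the gene. The matches at 455, 460 and 467 bp fall within one C-rich run and share or adjoin each other's bases. Of the run, only the middle match is shown, and capitals mark the motif on the plus strand with 10 bases on each side, which may hold a further match in lower case.
Gdnf chr15:7810166-7810172: gcagaaaaccGGGAGGGcaggacactc
Gdnf chr15:7810250-7810256: aggcagagcgCCCTCCCtcggagcgcc
Gdnf chr15:7810466-7810472: ggatctccgtCCCTCCCccacactcag
Gdnf chr15:7810508-7810514: ggaccccctcCCCTCCCccctcccggt
Gdnf chr15:7812219-7812225: cctgaccatgCCCTCCCtctctctgag
The motif was present in all 3 promoter windows of Gdnf, with 6, 2 and 3 matches from the most upstream to the most downstream start. At least 6 matches occurred in 4.26% of all windows, at least 2 in 38.1% and at least 3 in 21.5%. A match describes the letters and does not show that MAZ was bound.

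Around Gdnf, H3K4me3 was listed at 4 more places and Spin1 at none. All 4 lay downstream of the promoter and past the end of the gene. They were chr15:7838374-7839391 with a score of 197.0, chr15:7877444-7878578 with 254.4, chr15:7931179-7931817 with 68.64 and chr15:7933976-7934745 with 206.1. Their distances from the nearest Gdnf start ranged from 22.8 to 118 kb. The median score of the 16158 H3K4me3 peaks that touch no promoter was 202.8, so 2 of these 4 lay above it and 2 below. The 100 kb upstream of Gdnf held no peak of either kind. No start site of another gene lay within 100 kb on either side, a position shared by 5.50% of protein-coding genes (5.20 to 5.82%). Of these 1155 isolated genes, 42.6% (39.8 to 45.5%) had both promoter peaks.

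Ret encodes the receptor tyrosine kinase. It lies on the minus strand at chr6:118151748-118197744, and both of its transcripts start at position 118197744. The Spin1 peak, chr6:118196523-118198110, was 1588 bp wide with a score of 1041. It was the narrowest among the widest promoter peaks of the 4 genes and the one with the lowest score. Of the protein-coding genes with promoter Spin1, 79.6% had a peak at least as wide and 78.9% scored at least as high. H3K4me3 at chr6:118195093-118198443 was 3351 bp wide with a score of 3100, near the middle of all such peaks, since 47.4% were at least as wide. Spin1 lay under 47.4% of the H3K4me3 peak, the lowest share of the 4 genes, against a median of 66.2% (quartiles 56.6 and 75.3%) over 11903 protein-coding genes with both. The mark ran 1430 bp further into the gene than Spin1 and 333 bp further upstream.

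Ret was also the member without the MAZ motif under Spin1. Its promoter window held 1 match, which 65.1% of windows hold at least, and this match lay outside the Spin1 peak. The window had 60.1% GC and an observed to expected CpG ratio of 0.679, above the medians of 51.2% and 0.440 over all windows. It also held 5 matches to CAGCTG, an E-box of the kind bound by MyoD. The median window held 1, and 62.9% of windows held any. The share of windows with 5 or more is not given, so the count at Ret is not ranked, and neither is the place of its matches relative to the Spin1 peak. At the 1 start site of Gfra1 there was 1 such match, and the windows of Gdnf held 0, 1 and 1. The overlapping windows of Maz held 2, 3 and 3.

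**Figure D2:**
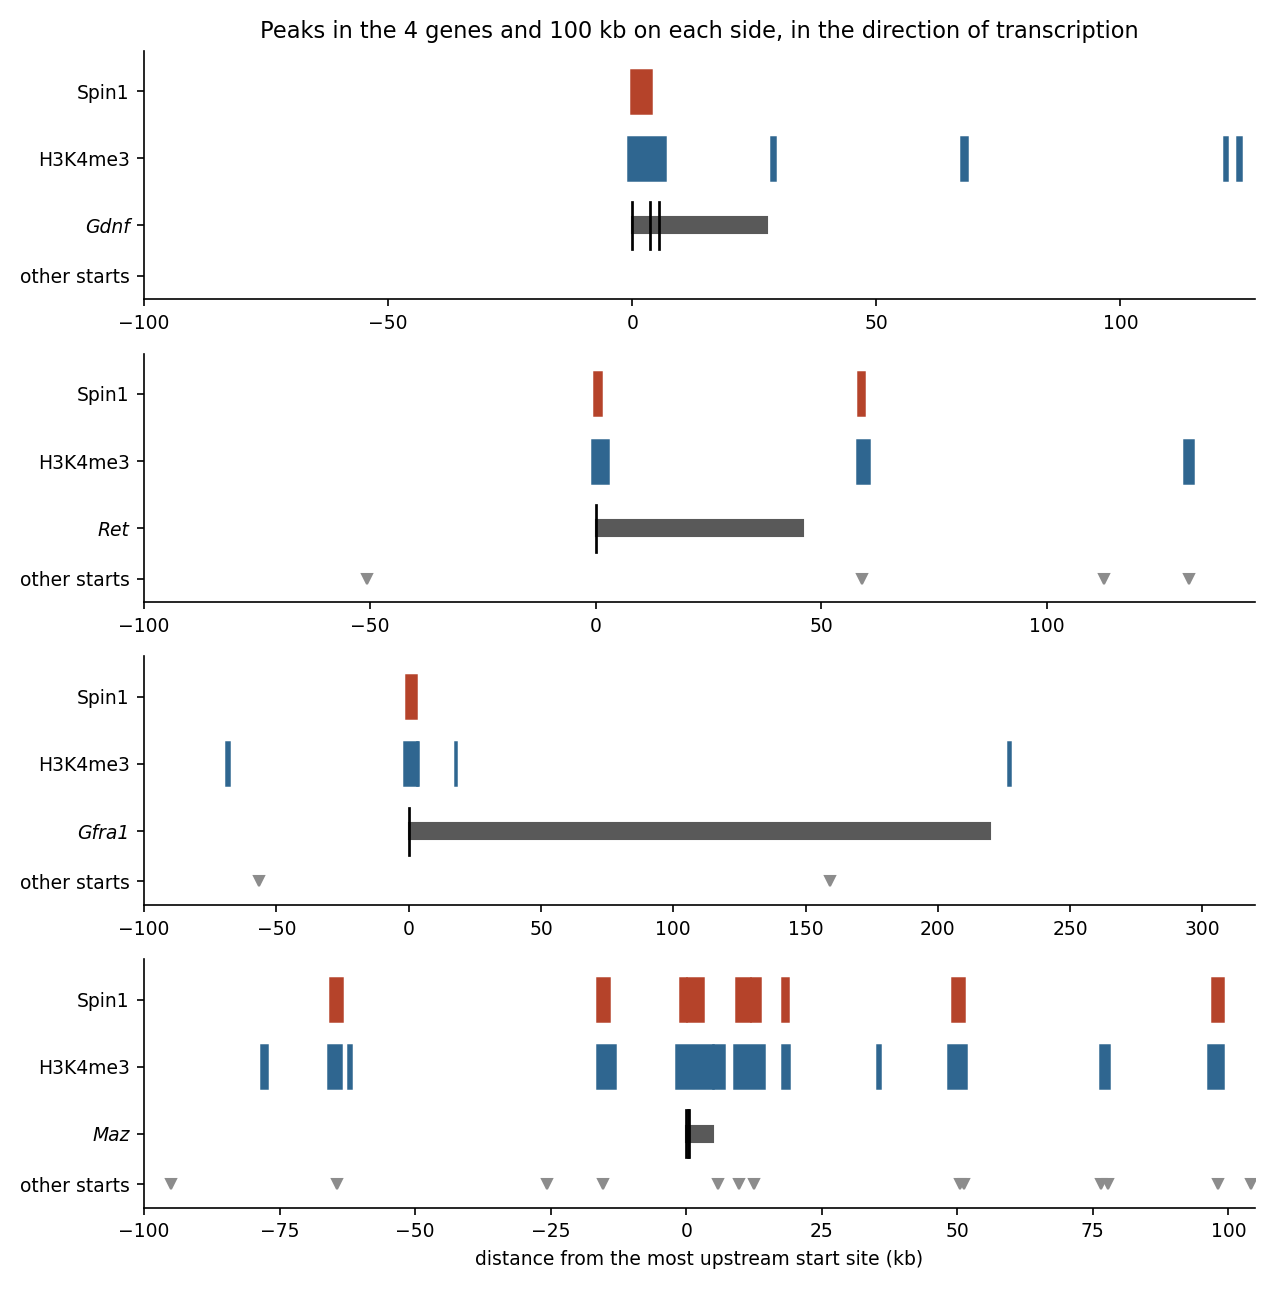
Spin1 peaks, H3K4me3 peaks, the gene with its start sites (black ticks) and the start sites of other genes (triangles) for Gdnf, Ret, Gfra1 and Maz and 100 kb on each side. The horizontal axis is the distance in kb from the most upstream start site in the direction of transcription, differs in range between the 4 panels, and peaks carry a thin outline so that narrow ones stay visible. Gdnf and Gfra1 have Spin1 at their own promoter and nowhere else in the panel, while Maz has 9 Spin1 peaks.

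One other Spin1 peak lay near Ret. It was chr6:118138230-118139571, with a score of 732.8, at the promoter of Csgalnact2, 58.6 kb from the Ret start. H3K4me3 was listed there as well, and again at the promoter of Rasgef1a (chr6:118065372-118067500), which had no Spin1 peak. The Ret gene body held no peak outside the promoter peaks. Of 4 neighbouring genes, 1 had both marks, 1 had H3K4me3 alone and 2 (1700069P05Rik and Mir7044) had neither.

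Gfra1 encodes the co-receptor that holds the ligand. It is the longest of the 4 genes, with 219818 bp on the minus strand at chr19:58235581-58455398, and its 3 transcripts share the start at position 58455398. The Spin1 peak, chr19:58452757-58456407, was 3651 bp wide with a score of 1810. It covered the whole promoter window, and 12.7% of protein-coding genes with promoter Spin1 had a peak as wide. H3K4me3 at chr19:58452417-58457132 was 4716 bp wide, a width reached by 19.6% of genes with the mark. Spin1 filled 77.4% of it, the highest share of the 4 genes and above the upper quartile of 75.3%. At Gfra1 alone of the 4, the promoter peak of the mark extended further beyond Spin1 upstream (725 bp) than downstream (340 bp). A second H3K4me3 peak, chr19:58451707-58452415, adjoined it downstream and entered neither these overhangs nor the share. Counted with it, the downstream overhang would be the longer, and the share would no longer pass the upper quartile. In 71.9% of protein-coding genes with both peaks (71.1 to 72.7%), as in Gdnf, Ret and Maz, the longer overhang was downstream.

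A 250-base stretch of the Gfra1 promoter that lay wholly under both peaks is shown, from the minus strand and upstream of every RefSeq exon of the gene. The stretch does not adjoin the curated start at position 58455398 but lies further upstream. It had 8 CpGs, 50.8% GC and no MAZ motif.
Gfra1 chr19:58455947-58456196 (-): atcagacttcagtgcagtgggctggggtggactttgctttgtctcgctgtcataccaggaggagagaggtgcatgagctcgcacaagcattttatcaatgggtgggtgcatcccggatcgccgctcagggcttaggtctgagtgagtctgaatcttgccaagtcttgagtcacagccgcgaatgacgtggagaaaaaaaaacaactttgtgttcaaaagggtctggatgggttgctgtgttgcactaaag
Under the Spin1 peak of Gfra1 the motif matched 5 times, always in an intron of the curated transcripts between 299 and 1870 bp after the start, and 4 of the 5 read on the strand of the gene. The sites are given on the minus strand, with the motif in capitals.
Gfra1 chr19:58455093-58455099: gctcgtccagGGGAGGGgatgacggtg
Gfra1 chr19:58454992-58454998: gcgagagccaGGGAGGGcggccaactt
Gfra1 chr19:58454662-58454668: gcgggagcggGGGAGGGgagaggggcg
Gfra1 chr19:58453635-58453641: tgttgagccgGGGAGGGgcgtgatggc
Gfra1 chr19:58453522-58453528: tcatgccctgCCCTCCCgggacctgga
The 5 sites lay apart from one another, unlike the C-rich run of Gdnf. The Gfra1 promoter window held 3 matches, as many as 21.5% of windows or more.

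Within the long body of Gfra1 and its flanks, no other Spin1 peak was listed. H3K4me3 was listed at 4 further places, all with low scores. One, chr19:58451707-58452415 with a score of 139.2, was separated from the promoter peak by 1 bp. A second, chr19:58437352-58437919, lay in an intron 17.5 kb from the start with a score of 58.66. The others were chr19:58228271-58228894, past the end of the gene, with 86.16, and chr19:58523298-58524465, upstream, with 155.1. None touched a promoter, and both neighbouring genes, Ccdc172 and Gm10007, were without peaks at their start sites in this range.

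Maz encodes the transcription factor. It is a short gene on the minus strand at chr7:127022134-127027005, with 5 transcripts and starts at positions 127027005 (1 transcript), 127026590 (3 transcripts) and 127026479 (1 transcript, RefSeq Select), spaced by 415 and 111 bp. Of the 4 genes, Maz alone had 2 Spin1 peaks at the promoter. The larger, chr7:127023863-127026911, was 3049 bp wide, had a score of 3100 and covered the 2 downstream starts. Its score was matched or passed by 48.9% of protein-coding genes with promoter Spin1. The smaller, chr7:127027125-127028223, was 1099 bp wide with a score of 631.0 and lay wholly upstream of the curated transcripts. The 213 bp between them, chr7:127026912-127027124, held the most upstream start, 94 bp from the nearer peak. The promoter window of this start still held both Spin1 peaks, which took up 89.4% of it, as at the 2 downstream starts.

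H3K4me3 showed no such gap at Maz. Its peak, chr7:127022159-127028827, ran over all 3 starts and nearly the whole gene with a width of 6669 bp, which 5.63% of protein-coding genes with the mark reached. Spin1 lay under 62.2% of it. Among protein-coding genes with both peaks, 9.61% (9.09 to 10.2%) had 2 or more Spin1 peaks within their widest promoter H3K4me3 peak. Over all 31647 start sites of curated transcripts, 15042 or 47.5% (47.0 to 48.1%) lay inside a Spin1 peak and 19022 or 60.1% (59.6 to 60.6%) inside an H3K4me3 peak. Of the 8 start sites of the 4 genes, H3K4me3 covered 8 and Spin1 covered 6, the exceptions being the most downstream start of Gdnf and the most upstream start of Maz. These 2 differ, since the window of the Gdnf start held no Spin1 peak while that of the Maz start was 89.4% under Spin1.

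**Figure D3:**
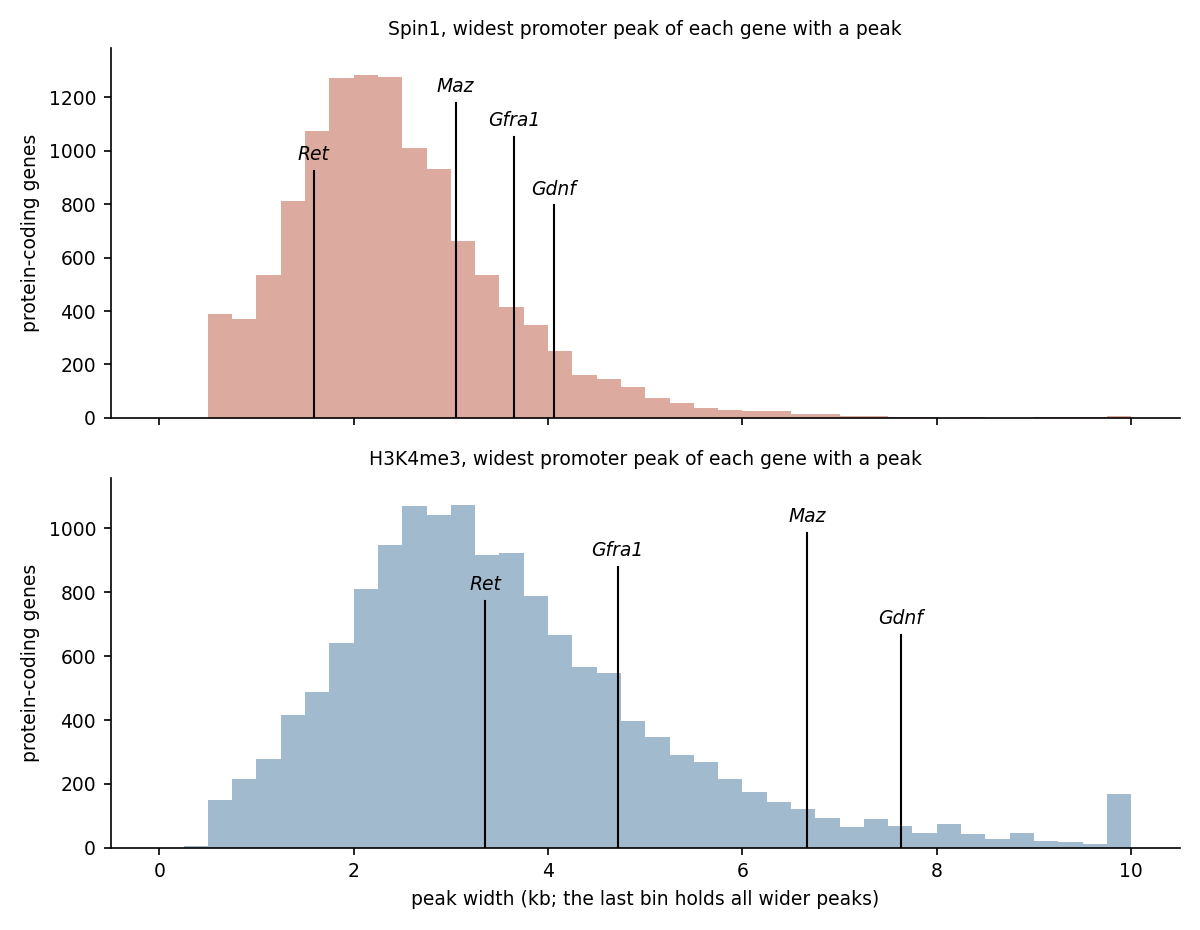
Width of the widest Spin1 peak (upper panel) and H3K4me3 peak (lower panel) at the promoter of each protein-coding gene with a peak, as the number of genes in bins of 250 bp. Vertical lines mark Gdnf (4060 and 7631 bp), Ret (1588 and 3351 bp), Gfra1 (3651 and 4716 bp) and Maz (3049 and 6669 bp), and Gdnf lies furthest to the right in both panels.

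Maz had the richest promoter sequence of the 4 genes in the motif named for its own protein. The windows around its 3 starts, which overlap and share most of their bases, held 13, 13 and 12 matches to GGGAGGG, while the median window held 1. At least 13 matches occurred in 0.377% of windows and at least 12 in 0.484%. These windows were also among the most GC-rich, at 71.1, 74.9 and 75.4%, and 0.234, 0.0190 and 0.0127% of all windows reached these values. A G-rich motif is met more often in GC-rich sequence, and no correction for this was made. Under the 2 Spin1 peaks there were 13 matches, with 3 upstream of the gene, 7 in introns and 3 in noncoding exon, and 11 read on the strand opposite to the gene. The stretch shown is 250 bases of the minus strand, upstream of every RefSeq exon and wholly under the smaller Spin1 peak. The stretch does not adjoin the most upstream curated start but lies further upstream. It had 24 CpGs and 68.8% GC, and the capitals mark 2 matches to CCCTCCC that overlap by 1 base.
Maz chr7:127027189-127027438 (-): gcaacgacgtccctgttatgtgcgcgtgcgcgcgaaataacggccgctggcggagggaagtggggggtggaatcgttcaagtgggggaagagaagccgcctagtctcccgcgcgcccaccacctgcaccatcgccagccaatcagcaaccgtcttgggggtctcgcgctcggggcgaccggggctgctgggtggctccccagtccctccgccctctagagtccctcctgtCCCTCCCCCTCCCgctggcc
A further upstream match and the 3 Spin1-covered matches nearest to the gap on its other side are shown because they flank the start that lay in the gap. They lay 573 bp before this start and 111, 165 and 169 bp after it, and the last 2 overlap in sequence, so only the first of these is printed. Some of the 13 matches in the window of this start lay in or at the edge of the gap. They were nearer to the start, were not wholly under Spin1 and are not shown. The printed sites are given on the minus strand.
Maz chr7:127027572-127027578: cactggaatgGGGAGGGgacggtggcc
Maz chr7:127026888-127026894: ctcctgcccgCCCTCCCtcctgtccca
Maz chr7:127026834-127026840: gcagctgtccCCCTCCCtccctcgcgc

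Over all genes, GGGAGGG was present in 20559 of 31603 promoter windows, which is 65.1% (64.5 to 65.6%), and all 8 windows of the 4 genes held it. Of all 17106 Spin1 peaks, 62.1% held the motif at 0.813 matches per kb. The density under Spin1 was 3.13 per kb at Maz, 1.72 at Gdnf, 1.37 at Gfra1 and 0 at Ret. The part of the promoter H3K4me3 peak that Spin1 left out had 2.78 matches per kb at Maz, 0.939 at Gfra1 and 0.567 at Ret, and 5 matches in 3571 bp at Gdnf. The motif was denser under Spin1 in 3 of the 4 genes. This held in 59.2% of the 11681 protein-coding genes with both parts of at least 200 bp, so 3 of 4 says little by itself. The densities rest on few matches, with 13 under Spin1 against 7 outside at Maz, 7 against 5 at Gdnf, 5 against 1 at Gfra1 and 0 against 1 at Ret. The part under Spin1 was also the richer in GC at each gene, and no correction for this was made.

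CpG density separated the 2 parts at each gene. Under Spin1 there were 8.06 CpGs per 100 bp at Ret, 6.75 at Maz, 5.79 at Gdnf and 5.01 at Gfra1. In the part of the H3K4me3 peak without Spin1, the values were 1.53, 1.63, 3.05 and 1.97. Spin1 therefore lay on the CpG-denser part in 4 of 4 genes, which was also the case in 98.5% of the 11681 genes, with medians of 4.21 and 1.13. The part without Spin1 was CpG-densest at Gdnf, where it comprised 643 bp before and 2928 bp after the Spin1 peak.

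Maz sat in a crowded stretch of chromosome 7 and the ligand and receptor genes did not. Within 100 kb of Maz there were 9 Spin1 and 12 H3K4me3 peaks, against 1 and 5 for Gdnf, 2 and 3 for Ret and 1 and 5 for Gfra1. Over all protein-coding genes the median was 3 Spin1 peaks (quartiles 1 and 6) and 5 H3K4me3 peaks (quartiles 2 and 9). At least 9 Spin1 peaks were found near 11.5% of genes and at least 12 H3K4me3 peaks near 15.1%. For Gdnf and Gfra1, the promoter peak was the only Spin1 peak in the gene and its flanks, which held for 9.19% (8.69 to 9.73%) of protein-coding genes with promoter Spin1. All but 1 of the 13 Spin1 peaks in the 4 loci touched a promoter, and the counts were highest where most genes lay nearby. Maz had 13 other genes with a start site within 100 kb, as many as 8.01% of protein-coding genes or more, while Ret had 4, Gfra1 2 and Gdnf 0.

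**Figure D4:**
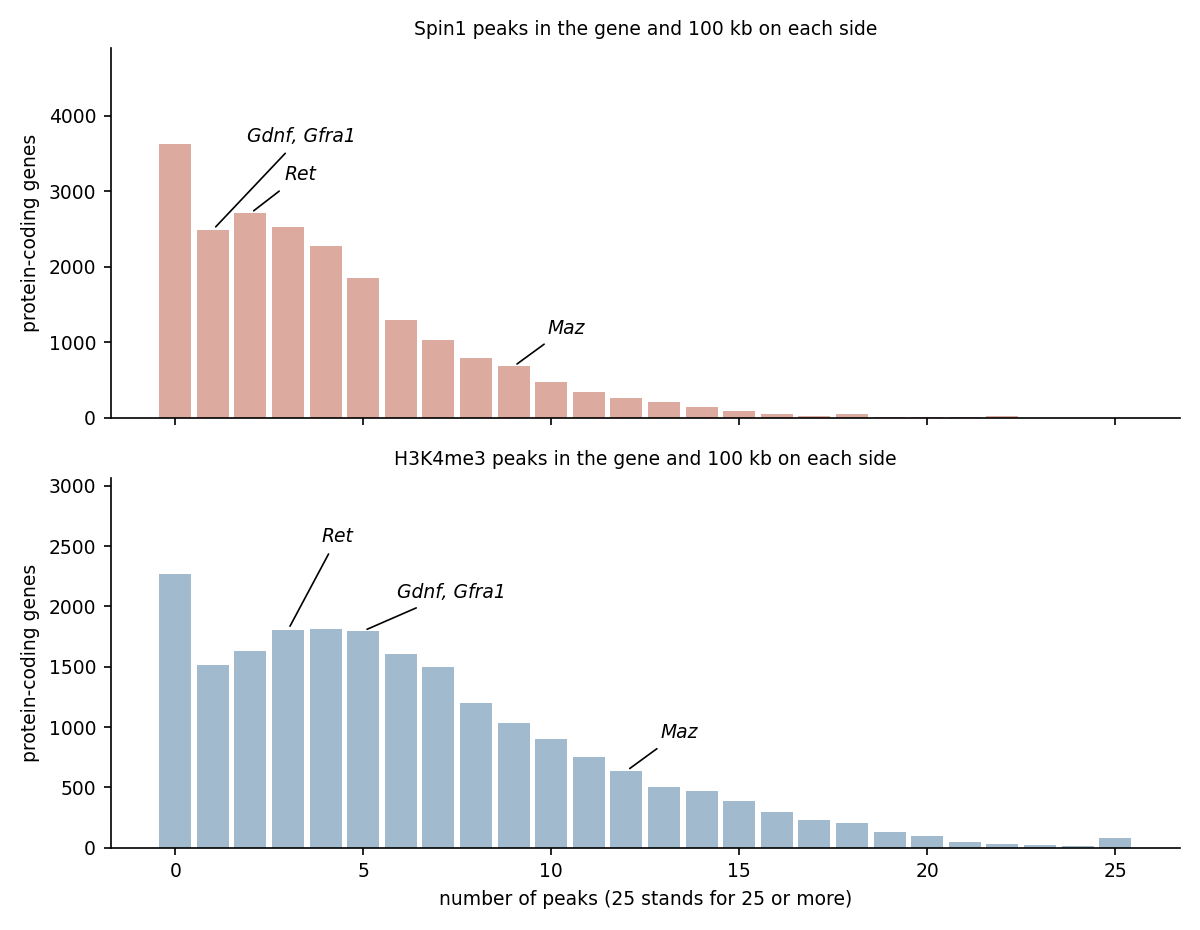
Number of Spin1 peaks (upper panel) and H3K4me3 peaks (lower panel) in each protein-coding gene and 100 kb on each side, as the number of genes with each count. Labels give the counts of the 4 genes, and Maz stands at 9 and 12 while the others stand at 1 or 2 and at 3 or 5.

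Of the 13 neighbours of Maz, 7 had both peaks at the promoter (AI467606, Cdipt, Cdiptos, Kctd13, Kif22, Mvp and Pagr1a), 3 had H3K4me3 alone (Asphd1, Sez6l2 and Prrt2) and 3 had neither (Qprt, Tmem219 and Zg16). Some of these share a peak, such as Cdipt and Cdiptos. The nearest, Prrt2, starts 5.27 kb from the RefSeq Select start of Maz, inside an H3K4me3 peak of its own, chr7:127019952-127022044, with a score of 1629. The Prrt2 promoter also touched the far edge of the Maz H3K4me3 peak, so that peak was counted for both genes. No Spin1 peak reached the Prrt2 promoter. The highest Spin1 score in the region, 3218, was at Kif22, 15.4 kb upstream of Maz. Peaks at Maz, Cdipt and Pagr1a stood at the ceiling of 3100, so this order does not rank occupancy. One Spin1 peak of the 13 in the 4 loci touched no promoter. It was chr7:127008257-127009318, 17.2 kb from Maz, with a score of 408.8, and it overlapped an H3K4me3 peak with a score of 208.6.

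Away from promoters, most H3K4me3 peaks near the 4 genes were without Spin1, as they were elsewhere. Of 12 that touched no promoter, 1 overlapped Spin1, the one just named. Genome-wide, 17.6% of such peaks did (17.0 to 18.2%), against 78.4% (77.7 to 79.1%) of H3K4me3 peaks that touch a promoter. In the 4 loci, 3 H3K4me3 peaks at a promoter lacked Spin1. They were the peak of Rasgef1a, the peak shared by Asphd1 and Sez6l2, and a peak of Prrt2.

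The other ligands and receptors of the GDNF family were occupied in part. Of 10 such genes, 6 had both peaks, 2 had H3K4me3 alone and 2 had neither. Among the ligands, Artn had a Spin1 peak of 950 bp and a score of 106.7. Nrtn had H3K4me3 (1774 bp) without Spin1, and Pspn had no peak. Gdf15, a more distant ligand that signals to Ret through Gfral, had a Spin1 peak of 2438 bp with a score of 1026, and Gfral had none. Of the co-receptors, Gfra2 (1852 bp, score 621.3) and Gfra4 (1149 bp, score 599.6) had Spin1 peaks smaller and lower in score than that of Gfra1, and Gfra3 had H3K4me3 alone with a score of 86.18. The alternative GDNF receptors Ncam1 and Sdc3 had Spin1 peaks of 2892 and 1866 bp with scores of 3100 and 2060. None of these Spin1 peaks was as wide as those of Gdnf and Gfra1. The share of 6 in 10 is near the 56.7% of all protein-coding genes. It was 2 in 10 with the 50% of peaks of highest score and 2 in 10 by peak centers, settings in which 38.1% and 46.5% of all genes had Spin1.

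Among genes that act downstream of Ret, both peaks were listed at 15 of 16 adaptors and pathway readout genes, the exception being Grb7, which had neither, against 56.7% of all protein-coding genes. Counted by peak centers instead of overlap, 7 of the 16 had both, a setting in which 46.5% of all genes had Spin1. The adaptor Shc1 had a Spin1 peak of 6020 bp, and Frs2, another docking protein of Ret, one of 2819 bp. The feedback inhibitors Spry2 and Dusp6 had the widest, with 7477 and 7223 bp, wider than the 4060 bp of Gdnf. Etv4 and Etv5, transcription factors induced by GDNF in other tissues, had 1547 and 2987 bp. These genes serve many receptors, and most are widely expressed.

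Zinc finger genes with GC-rich targets like those of Maz were occupied at 9 of 9 promoters (Vezf1, Patz1, Zfp281, Zfp148, Sp1, Sp3, Sp4, Klf4 and Ctcf), against 56.7% of all protein-coding genes. Their Spin1 peaks had a median width of 3501 bp, and the 3049 bp of Maz lay among them. Vezf1 and Patz1, which are close to Maz in sequence, had 3501 and 5137 bp. The Sp1, Zfp281 and Zfp148 promoters had 2 Spin1 peaks each, as Maz did.

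**Figure D5:**
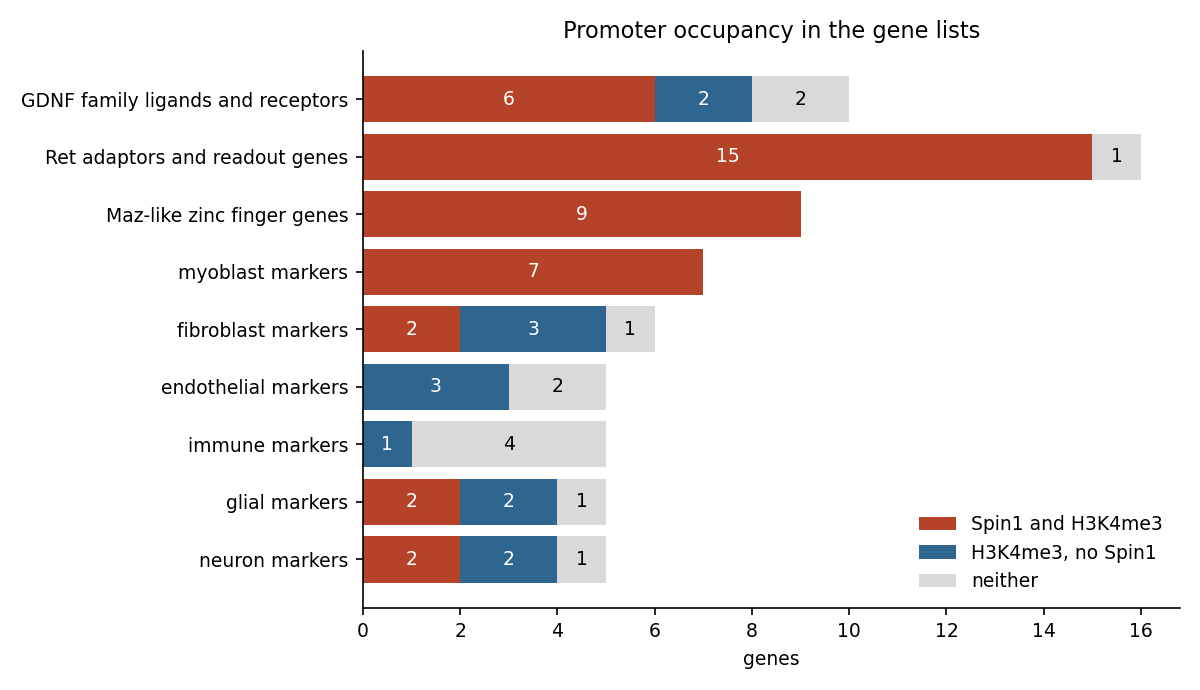
Number of genes with both promoter peaks, with H3K4me3 alone and with neither, in the gene lists related to the 4 genes and in the cell type marker lists. The horizontal axis counts genes, and every myoblast marker and Maz-like gene has both peaks while the endothelial and immune markers have no Spin1.

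The protein-coding genes most like each member were found from 4 values, which were the widths of the widest promoter peaks and the numbers of peaks within 100 kb, both for Spin1 and for H3K4me3. Likeness was the Euclidean distance of the z-scored log2 values over the 21000 protein-coding genes, taken more than 100 kb away. The nearest to Gdnf were Arhgap21 at a distance of 0.0338, Trib1 at 0.0623 and Has2 at 0.0661. Each of them had 1 Spin1 and 5 H3K4me3 peaks near it, with Spin1 peaks of 4046, 5083 and 4930 bp. The nearest to Ret were Slc26a2 (0.00881), Hey2 (0.0128) and Glt28d2 (0.0132), and the nearest to Gfra1 were Wrn (0.0116), Usp24 (0.0137) and Glis3 (0.0235). Maz was most like Agpat1 and Rnf5, both at 0.0368 because they share their peaks, and Ankhd1 at 0.0377. Gdnf and Maz had more distant nearest genes than Ret and Gfra1.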

How the data were processed

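Reads of the ChIP-seq libraries (paired-end, HiSeq 2500) were mapped by the authors to mm10 with bowtie 2 and peaks called against input with MACS 1.4.2, peaks with a false discovery rate above 1% being removed. The deposited files list peaks of 1 library per antibody with a score, read as 10 times −log10 of the p-value because the files have no header. The input library and the RNA-seq libraries were not analysed here, and depth is unknown. PCR duplicates, depth and the choice of input enter score and width.

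Peak starts were shifted to count from 1 and compared with curated transcripts (NM and NR) of RefSeq annotation on GRCm38.p6, with Python 3.11.15, pandas 2.3.3, numpy 2.4.6 and scipy 1.17.1. An overlap of 1 bp counted. The overlap and motif functions were tested on simulated data, where 80% of 5000 promoters were given a peak and 80% were recovered. Promoter sequences of RefSeq (GRCm38.p6) were matched for 3 of the 4 genes. The members and lists were chosen with earlier results of these data known. Named genes were the members, Spin1, the 3 related lists, occupied neighbours within 100 kb, the 3 most similar genes per member and the cell type markers, some of which are counted but not reported by name here. Neighbours without peaks were named after their values were seen. Alternatives were other windows, start sites, score limits, flanks, overlaps and motifs.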

Additional observations from a re-analysis of the deposited data

How the results depend on the processing

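Of 102 recomputed values, 75 stayed within 1.5 times a count or within the interval of a share, and 27 moved. No paired analysis was possible because each antibody has 1 library, and none could be left out. Spin1 was listed at 3 of 4 members when only the RefSeq Select start or the peak center was used (without Gdnf), and with the 50% of peaks of highest score (without Ret). GDNF family genes with both peaks fell from 6 to 2 with these high-scoring peaks and to 2 with peak centers, and the Ret adaptors and readout genes to 7 with peak centers. With high-scoring peaks, Ret had 0 Spin1 peaks within 100 kb and thus 0 with H3K4me3, and H3K4me3 peaks fell to 1 at Gdnf and to 1 at Gfra1. A score of at least 100 left 3 at Gfra1, and flanks of 50 kb left 3 at Gdnf and 7 at Maz. The share of all genes with Spin1 (50.7%) became 50.1% for TSS±0.5 kb, 51.4% for TSS±2 kb, 49.7% for 1 kb upstream to 0.1 kb downstream, 55.8% for RefSeq Select starts, 38.1% for high-scoring peaks, 46.5% for peak centers and 56.7% for protein-coding genes. For H3K4me3 (61.9%), the same changes gave 61.2, 63.0, 61.1, 67.2, 56.6, 50.5 and 68.0%, and a score of at least 100 gave 61.0%. The MAZ motif (65.1% of windows) was present in 49.2% within TSS±0.5 kb and, as GGGGAGGG, in 40.1%. The causes were not tested beyond what each change does by construction.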
